A study of Mus musculus with 9 samples.

Results

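The IgG Fc receptor genes of the mouse were followed across 9 spleen libraries: Fcgr2b, Fcgr1, Fcgr3, Fcgr4, Fcer1g and Fcgrt. These 6 genes, of 21965 counted, were chosen by name as the inhibitory receptor, the activating receptors, the signalling chain that the activating receptors share, and the neonatal receptor. RNA came from spleens of mice aged 16 weeks, in 3 groups of 3 libraries. The first group is BWF1 females, BWF1 standing for the strain label NZB x NZW F1, and the series title calls these females lupus-prone. The other groups, males of that cross and females of the BALB/c strain, are named there as not lupus-prone. No treatment, transgene or induced allele is given for any group, and females and males of the cross share both parental strains. BALB/c differs from BWF1 in every inherited difference between the strains, so the comparison of BWF1 males with BALB/c females mixes strain and sex. The design text names 3 groups of 3 mice, while the sample labels do not state that each library came from 1 animal. The p-values measure the spread between these libraries.

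Fc receptors let cells bind the constant part of IgG, mostly as immune complexes or on coated particles. The activating receptors Fcgr1, Fcgr3 and Fcgr4 signal through the Fcer1g chain, whose activation motif (ITAM) recruits the kinase Syk, and are carried by macrophages, monocytes and, for Fcgr3, natural killer cells. Fcgr2b carries an inhibitory motif (ITIM) that recruits the phosphatase SHIP-1 (Inpp5d), and it is the classical IgG Fc receptor of B cells as well as a receptor of myeloid cells. Fcgrt pairs with beta-2-microglobulin and returns endocytosed IgG to the cell surface. The balance of inhibitory and activating receptors sets the response of a cell to immune complexes, and alleles of Fcgr2b with promoter deletions are known from NZB and other autoimmune strains.

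On mm10, 4 of the genes lie close together on chromosome 1. Fcgr2b (ENSMUSG00000026656) spans chr1:170958617-170976547 on the minus strand and Fcgr4 (ENSMUSG00000059089) chr1:171018920-171029761 on the plus strand. Next to them are Fcgr3 (ENSMUSG00000059498) at chr1:171051174-171064935 and Fcer1g (ENSMUSG00000058715) at chr1:171229572-171234365, both on the minus strand. Fcgr1 (ENSMUSG00000015947) is at chr3:96282909-96293969 and Fcgrt (ENSMUSG00000003420) at chr7:45092990-45103851, both on the minus strand. All 6 are protein-coding genes, and the counts cover their exons as a whole.

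The 3 activating receptors share a short promoter word that the other members lack, and the stretches that hold it are shown because these receptors are the ones set against Fcgr2b below. Each line gives 30 bases of RefSeq promoter sequence (GRCm38.p6), 5′ to 3′ on the strand of the gene, with the matched letters in capitals. The capitals TTCCTC are the reverse complement of GAGGAA, a word bound by the myeloid and B cell factor PU.1, and lie 55 bases before the start of Fcgr1 (chr3:96294007-96294036, minus strand), 6 before Fcgr3 (chr1:171059404-171059433, minus strand) and 22 before Fcgr4 (chr1:171018892-171018921, plus strand). In the last line, the capitals mark the word TTCNNNGAA, the form of an interferon-gamma activated site, 109 bases before the start of Fcgr1 (chr3:96294061-96294090, minus strand).
Fcgr1, PU.1-type word: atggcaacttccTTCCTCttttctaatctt
Fcgr3, PU.1-type word: ggttaagcaagagagtccatttccTTCCTC
Fcgr4, PU.1-type word: aaggctatttacTTCCTCtcttctagtcaa
Fcgr1, GAS-type word: ctaaggatgtatTTCCCAGAAaagggaaca

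The search covered 250 bases before each RefSeq start, on both strands, and its words were picked after the sequences had been seen. GAGGAA occurred in 3 of the 6 members and in 23.1% of 27025 mouse promoters. TTCNNNGAA occurred in 1 member and in 7.18% of promoters. The shorter ETS core GGAA, which GAGGAA contains, was in 6 of 6 members and in 93.4% of promoters. TGACGT, the core of a cyclic AMP response element, was in 1 member, Fcgrt, and in 6.56% of promoters. These letters come from the reference strain, which is neither BWF1 nor BALB/c, and a match is a description of the letters and not a site of binding.

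Reads of Fcgr2b and Fcgr3 can be hard to tell apart over part of their coding sequence. The longest identical coding run of the pair, in GENCODE M21 transcripts, is 129 bases and is shown because reads within it fit both genes.
Fcgr2b and Fcgr3, shared coding run: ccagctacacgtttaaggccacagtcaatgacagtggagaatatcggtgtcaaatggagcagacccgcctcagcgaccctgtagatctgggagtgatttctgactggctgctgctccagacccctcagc
Of all stretches of 50 bases in Fcgr3 transcripts, 9.58% also occurred in Fcgr2b. Fcgr2b shared 6.95% of its own stretches with Fcgr3 or other genes. Fcgr1, Fcgr4, Fcer1g and Fcgrt shared none. The levels of Fcgr2b and Fcgr3 are uncertain to that extent. Annotated antisense genes overlap Fcgr2b (Gm38204) and Fcgrt (Gm45669) and were not counted, so reads from those partners may be in the counts of either gene if strand was not used.

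Depth was low and set what could be seen. Gene counts ran from 458608 to 4305003 per library, and the single mitochondrial synthetase gene Lars2 took 42.3% to 76.6% of them. BWF1 male 3 was the deepest library, and BWF1 male 1 had the highest Lars2 share and the lowest scaling factor (0.530, against 0.934 to 1.40 in the others). Levels are given in CPM, counts relative to the library size after scaling by trimmed mean of M values (TMM), and 3 counts correspond to 0.697 to 6.54 CPM on unscaled library sizes. The title and design text describe splenocytes and the sample labels macrophages sorted for CD11b and F4/80. Itgam, which encodes CD11b, had 1 count over the 3 BWF1 female libraries and averaged 0.538 CPM there, 4.87 CPM in males and 5.52 CPM in BALB/c females. Adgre1, which encodes the macrophage protein F4/80, did not follow that order, at 14.8, 15.3 and 7.27 CPM. In that order of groups, 10 B cell markers summed to 2449 ± 98.0, 2720 ± 326 and 3362 ± 19.6 CPM (SD, n = 3).

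Fcgr2b, the inhibitory receptor, had the most counts of the 6 genes in every library except BWF1 male 1, where it had 20 and Fcer1g 21, but it was not the most abundant per length of transcript. It stood at 24.3, 38.7 and 26.7 CPM in BWF1 females 1, 2 and 3, at 39.2, 37.9 and 36.4 CPM in BWF1 males, and at 45.3, 50.6 and 33.7 CPM in BALB/c females. Female 2 lay among the males and BALB/c female 3 lay below all males, so each pair of groups overlapped. The group means were 29.9 ± 7.74, 37.9 ± 1.40 and 43.2 ± 8.64 CPM (SD, n = 3). Raw counts of 11 to 24 in the BWF1 females and 20 to 175 in the other groups stood behind these levels.

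None of the 3 differences of Fcgr2b passed the test. The log2 fold change of BWF1 females against males was −0.32 (SE 0.24, 95% interval −0.82 to 0.18; edgeR quasi-likelihood adjusted p = 0.558). Against BALB/c females it was −0.52 (SE 0.24, −1.01 to −0.03), with an unadjusted p of 0.0395 and an edgeR adjusted p of 0.267. Males differed from BALB/c females by −0.20 (SE 0.22, −0.66 to 0.26; edgeR adjusted p = 0.734). In the 21 alternatives of each comparison Fcgr2b was called in 0, and its sign did not change.

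Fcgr3, a low-affinity activating receptor of macrophages, neutrophils and natural killer cells, was the only one of the 6 genes whose groups did not overlap in some comparison. It stood at 4.41, 1.61 and 2.05 CPM in BWF1 females, at 15.7, 8.20 and 14.2 CPM in BWF1 males and at 9.34, 9.20 and 4.96 CPM in BALB/c females. All 3 BWF1 female libraries lay below all libraries of both other groups, and the males overlapped BALB/c females. The means were 2.69 ± 1.5, 12.7 ± 3.96 and 7.83 ± 2.49 CPM (SD, n = 3). The female values rest on 2, 1 and 1 counts, against 8, 8 and 68 in males and 13, 14 and 5 in BALB/c females.

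Fcgr3 fell below the count filter of the main test, which kept genes reaching a level equal to 10 counts in a library of median size, so its test comes from a lower filter of 5 counts. There its log2 fold change was −2.26 in BWF1 females against males (SE 0.56, 95% interval −3.41 to −1.11; edgeR adjusted p = 0.0313), and the call was on the lower side. Over 16 alternatives this value ran from −2.77 to −1.98, its adjusted p from 0.0253 to 0.209, and 11 kept the call. It was lost without BWF1 female 2 (−1.98; edgeR adjusted p = 0.114), without BWF1 female 3 (−2.13; 0.108) and without BWF1 male 3 (−2.07; 0.209). Library size alone (−2.12; edgeR adjusted p = 0.168) and limma-voom (−1.99; 0.149) also gave no call. Against BALB/c females the log2 fold change was −1.59 (SE 0.59, −2.80 to −0.38; edgeR adjusted p = 0.155), and males stood 0.67 above BALB/c females (SE 0.38, −0.12 to 1.46; edgeR adjusted p = 0.42), so neither passed. Of the 9520 genes tested with the filter of 5 counts, 1.83% were called in the comparison of females with males of the cross, 1.04% on the lower side. The share was 3.35% between the female groups and 3.37% between males and BALB/c females. In the test for any difference among the groups it was 5.43%, and Fcgr3 also passed there (edgeR adjusted p = 0.035). A gene that enters the test mainly through its higher group is more likely to differ, which holds for Fcgr3 here.

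Pooled counts of Fcgr3 gave the same order. Relative to scaled library size, males had 5.21 times the Fcgr3 counts of BWF1 females (exact 95% interval 1.96 to 19.6), and 4.20 times without BWF1 male 3 (1.36 to 17.3). BALB/c females had 3.18 times the counts of BWF1 females (1.13 to 12.4). Intervals of pooled counts cover counting error only and not the spread between libraries.

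Fcgr1, the high-affinity receptor for IgG, was at the edge of detection. It had 0, 0 and 1 counts in BWF1 females, 0, 3 and 23 in BWF1 males and 1 in each BALB/c female. The levels were 0, 0 and 2.05 CPM in BWF1 females, 0, 3.08 and 4.79 CPM in males and 0.719, 0.657 and 0.991 CPM in BALB/c females. The male libraries spanned the other groups, and the highest value came from the deepest library. The pooled ratio of males to BALB/c females was 5.41 (exact 95% interval 1.66 to 27.9), and without BWF1 male 3 it was 2.64 (0.354 to 19.7). Males against BWF1 females gave 6.45 (1.06 to 265), and without BWF1 male 3 the ratio was 3.15 (0.253 to 165).

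Fcgr4, a receptor for IgG2 subclasses on monocytes, macrophages and neutrophils, was as scarce. It had 1, 2 and 0 counts in BWF1 females, 0, 2 and 24 in males and 1, 3 and 3 in BALB/c females. The corresponding levels were 2.21, 3.23 and 0 CPM, 0, 2.05 and 5.0 CPM, and 0.719, 1.97 and 2.97 CPM. All pairs of groups overlapped, and a difference in Fcgr1 or Fcgr4 was not detectable at this depth beyond the single library BWF1 male 3. The pooled ratio of males to BWF1 females for Fcgr4 was 2.15 (exact 95% interval 0.659 to 11.1), and without BWF1 male 3 it was 0.70 (0.0585 to 6.11).

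Fcer1g, the common gamma chain that carries the ITAM for the activating receptors, was the highest of the 6 genes per length of transcript in all 3 groups. It stood at 13.2, 24.2 and 14.4 CPM in BWF1 females, at 41.2, 15.4 and 29.4 CPM in males and at 12.9, 18.4 and 20.8 CPM in BALB/c females. Male 2 lay among the females, so the groups overlapped. The means were 17.3 ± 6.03, 28.6 ± 12.9 and 17.4 ± 4.04 CPM (SD, n = 3).

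The gamma chain did not pass the test in any comparison. BWF1 females differed from males by a log2 fold change of −0.66 (SE 0.35, 95% interval −1.38 to 0.05; edgeR adjusted p = 0.348). Males stood 0.69 above BALB/c females (SE 0.32, 0.03 to 1.35), with an unadjusted p of 0.0403 and an edgeR adjusted p of 0.274. The 2 female groups differed by 0.03 (−0.70 to 0.75; edgeR adjusted p = 0.98), and the sign of that value changed with 4 alternatives. In BWF1 females the mean of Fcer1g was thus near that of BALB/c females and below that of males. Fcgr3 was lower there than in both other groups, without passing against BALB/c females. The difference between the genes was not itself tested.

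Fcgrt, the heavy chain of the neonatal Fc receptor, also overlapped between all groups. Its levels were 19.8, 24.2 and 10.3 CPM in BWF1 females, 31.4, 13.3 and 26.9 CPM in males and 18.0, 15.1 and 24.8 CPM in BALB/c females. The means were 18.1 ± 7.13, 23.9 ± 9.39 and 19.3 ± 4.97 CPM (SD, n = 3). Its log2 fold changes were −0.37 for BWF1 females against males (95% interval −1.09 to 0.36), −0.06 against BALB/c females (−0.79 to 0.67) and 0.31 for males against BALB/c females (−0.35 to 0.97). The edgeR adjusted p-values were 0.653, 0.958 and 0.709.

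**Figure D1:**
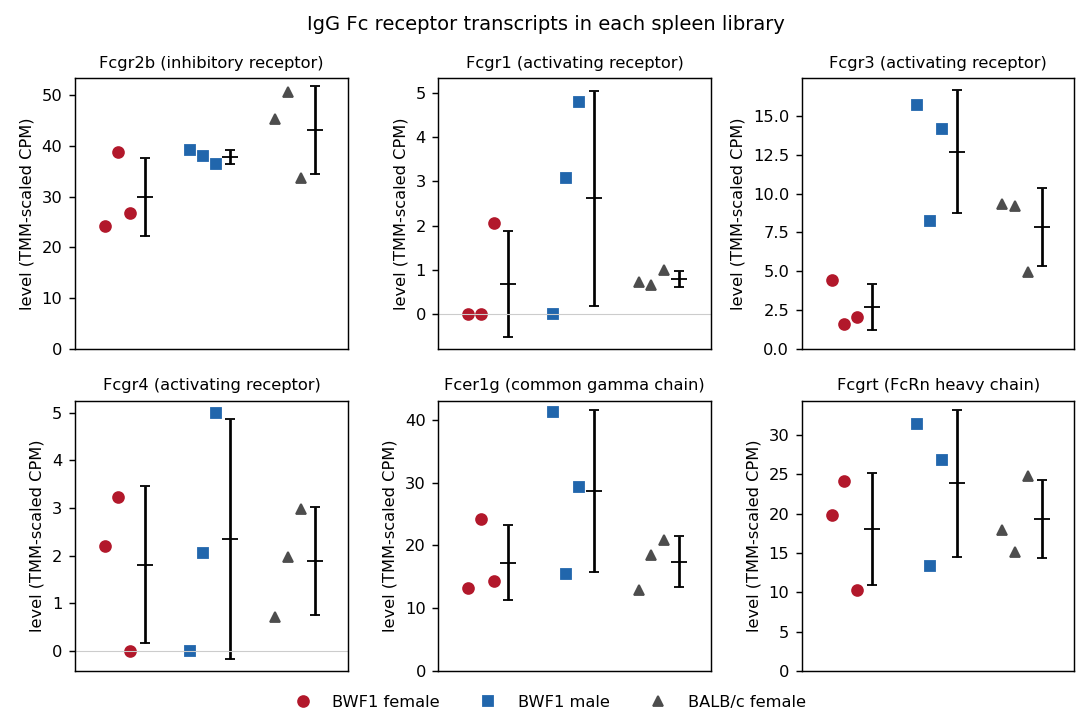
Level of each of the 6 genes in TMM-scaled CPM (vertical axis, linear, a different range in each panel), with 1 point per library in replicate order and the group mean with its SD as a bar to the right of the points. The 3 BWF1 female points of Fcgr3 lie at or below 4.41 CPM, under all points of the other groups, while the points of the other 5 genes overlap between groups.

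Over the 6 genes, 3 passed the main filter (Fcgr2b, Fcer1g and Fcgrt), and 0 were called by edgeR in any comparison. The share of all 7719 tested genes called was 2.19% between BWF1 females and males, 3.82% between BWF1 and BALB/c females, 3.52% between males and BALB/c females and 6.09% for any difference among the groups. At an unadjusted p under 0.05 the members counted 0, 1 (Fcgr2b) and 1 (Fcer1g) of 3 in the 3 comparisons in that order, where 16.4%, 16.9% and 16.3% of all tested genes had such a p. DESeq2 and limma-voom at the same filter also called 0. With no count filter, edgeR called 1.99%, 2.8% and 3.34% of 15276 genes in those comparisons, and of the 6 members Fcgr3 between BWF1 females and males (−2.30; adjusted p = 0.00767). Fcgr1, tested only there, stood at −2.40 between BWF1 females and males (95% interval −4.83 to 0.02; edgeR adjusted p = 0.382), −0.25 between the female groups (0.996) and 2.15 between males and BALB/c females (0.43 to 3.87; 0.155). Fcgr4 gave −0.92, 0.05 and 0.97 in the same order (edgeR adjusted p = 0.773, 1 and 0.604). Groups did not overlap for 1 of 6 members (Fcgr3) between BWF1 females and males, where 18.7% of all tested genes did not overlap. The same held for 1 of 6 (Fcgr3) between BWF1 and BALB/c females, with a background of 21.2%, and for 0 of 6 between males and BALB/c females, with a background of 23.5%. With 6 genes, 1 that does not overlap is near those backgrounds.

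**Figure D2:**
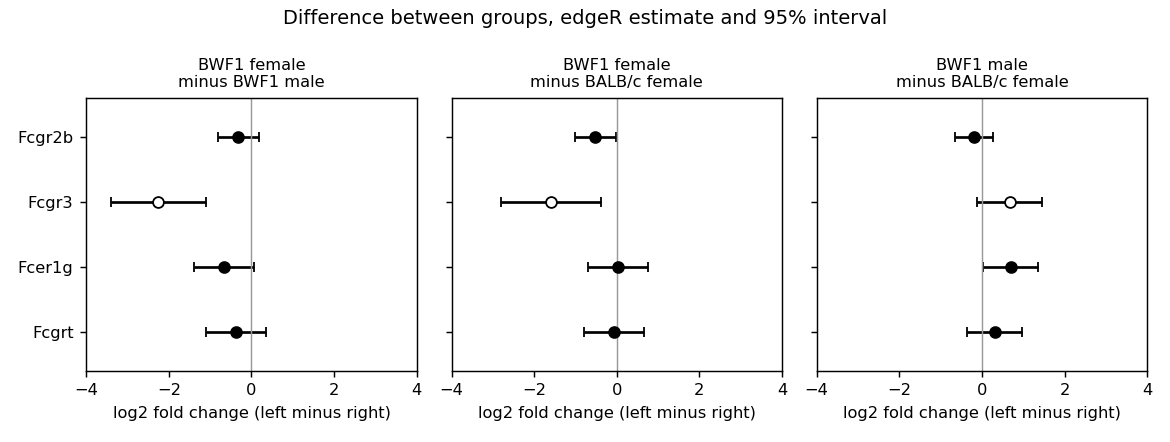
edgeR log2 fold change (horizontal axis) and 95% interval of the 4 genes that passed one of the 2 count filters, with 1 panel per comparison, the first-named group minus the second. Filled points are from the main filter and the open point of Fcgr3 from the filter of 5 counts; only Fcgr3 between BWF1 females and males, at −2.26, passed the adjusted threshold.

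Per kilobase of exon, the order of mean levels within a group was nearly the same in all groups. In BWF1 females it ran Fcer1g (19.8 ± 6.90 CPM per kb), Fcgrt (8.61 ± 3.39), Fcgr2b (5.16 ± 1.34), Fcgr3 (1.55 ± 0.867), Fcgr4 (1.44 ± 1.31) and Fcgr1 (0.264 ± 0.458). BALB/c females had the same order, with Fcgr2b at 7.46 ± 1.49 and Fcgr3 at 4.51 ± 1.44 CPM per kb. In males Fcgr3 (7.31 ± 2.28 CPM per kb) came before Fcgr2b (6.54 ± 0.241). The ranges of neighbours in the order overlapped for Fcgrt and Fcgr2b in both female groups, and Fcgr3 overlapped both Fcgrt and Fcgr2b in males. Fcgr4 overlapped Fcgr1 in males, and both Fcgr3 and Fcgr1 in BWF1 females. The order of Fcgr3, Fcgr4 and Fcgr1 in BWF1 females, on 4, 3 and 1 counts, is thus not resolved. Fcgr2b and Fcgr3 did not overlap in either female group, and Fcer1g stood clear of Fcgrt in all 3 groups.

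The contrast of the inhibitory with the activating receptors was lowest in the males. Of all counts in Fcgr2b, Fcgr1, Fcgr3 and Fcgr4, Fcgr2b took 78.6%, 88.9% and 86.7% in BWF1 females, 71.4%, 74.0% and 60.3% in males and 80.8%, 81.1% and 79.1% in BALB/c females. All male libraries lay below all libraries of both female groups, while the female groups overlapped. Among all tested genes, 18.7% did not overlap between BWF1 females and males, and 23.5% between males and BALB/c females. The exact (Clopper-Pearson) 95% intervals were wide in the shallow libraries, at 49.2% to 95.3% in BWF1 female 1 and 51.3% to 86.8% in BWF1 male 1, and narrow in BWF1 male 3, at 54.5% to 66.0%. Those intervals cover counting error only. The shares are of counts and not of transcripts, as Fcgr2b has 5790 exon bases against 2589 in Fcgr1, 1736 in Fcgr3 and 1256 in Fcgr4. Summed over a group, Fcgr2b had 48 counts to 8 of the activating receptors in BWF1 females, 232 to 136 in males and 174 to 42 in BALB/c females. The male sum is mostly BWF1 male 3, with 175 to 115, while male 1 had 20 to 8 and male 2 had 37 to 13.

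**Figure D3:**
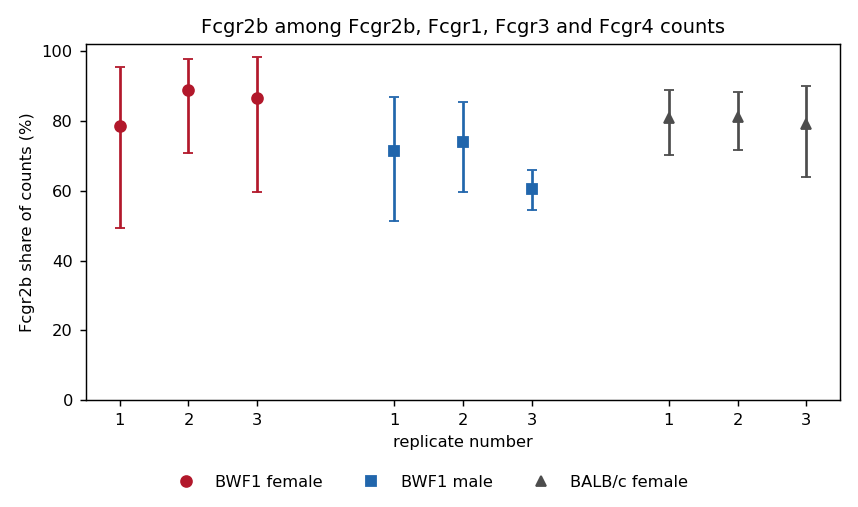
Fcgr2b counts as a percentage of Fcgr2b, Fcgr1, Fcgr3 and Fcgr4 counts (vertical axis, from 0) in each library, by replicate number within each group, with exact 95% binomial intervals as bars. The BWF1 male points, from 60.3% to 74.0%, lie below the points of both female groups, and the intervals of single libraries overlap between groups except where BWF1 male 3 is compared with BWF1 female 2 or with BALB/c female 1 or 2.

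On a log2 scale, with 0.5 added to both counts, the ratio was 1.72, 2.81 and 2.43 in BWF1 females, 1.27, 1.47 and 0.60 in males and 2.03, 2.07 and 1.86 in BALB/c females. Its means were 2.32 ± 0.55, 1.12 ± 0.46 and 1.99 ± 0.11 (SD, n = 3). BWF1 females stood 1.20 above males and 0.33 above BALB/c females, and males 0.87 below BALB/c females (difference −0.87). The first and last differences exceeded the SD of either group and their groups did not overlap, whereas the difference between the female groups was within the spread of the BWF1 females. In those first and last comparisons the groups also did not overlap for 18.7% and 23.5% of all tested genes. Without BWF1 male 3, BWF1 females stood 0.95 above males, and males differed from BALB/c females by −0.62. With counts divided by exon length, the log2 ratio was −0.17, 0.78 and 0.89 in BWF1 females and −0.47, −0.24 and −1.15 in males. In BALB/c females it was 0.29, 0.27 and 0.003. The males again lay below all libraries of both female groups.

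The file names carry a tag, ORIG or RL, whose meaning the labels do not give. All BALB/c libraries and replicate 2 of each BWF1 group carry ORIG, and the other BWF1 libraries RL. Within the ORIG libraries BWF1 female 2 stood 1.33 above BWF1 male 2, and within the RL libraries females stood 1.14 above males. Within ORIG the ratio of BWF1 female 2 was 0.82 above the BALB/c mean and that of BWF1 male 2 differed by −0.51. Each of these had the direction of the pooled value, with 1 library on a side in the ORIG comparisons of BWF1.

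The order of the 2 female groups depended on what Fcgr2b was set against. Against Fcgr3 alone BWF1 females stood 0.70 above BALB/c females, but against Fcer1g the difference was −0.52. With Fcgr1, Fcgr3, Fcgr4 and Fcer1g together it was −0.22, and with the mean of the log2 levels of the activating receptors −0.27. Males had the lowest mean ratio under all of these denominators. Against Fcer1g, however, the males (0.51 ± 0.69) and the BWF1 females (0.78 ± 0.10; SD, n = 3) differed by only 0.27 and overlapped, with BWF1 male 2 at 1.27 above all 3 BWF1 females.

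The 2 sides of the ratio did not contribute alike. Activating counts summed to 6.62, 4.84 and 4.11 CPM in BWF1 females, 15.7, 13.3 and 23.9 CPM in males and 10.8, 11.8 and 8.92 CPM in BALB/c females. These 3 groups did not overlap, with means of 5.19 ± 1.29, 17.7 ± 5.57 and 10.5 ± 1.47 CPM (SD, n = 3). The BWF1 female values rest on 3, 3 and 2 counts. Among all tested genes, 18.7% did not overlap between BWF1 females and males, 21.2% between the female groups and 23.5% between males and BALB/c females. Fcgr2b overlapped between all groups. In bulk spleen RNA, fewer cells of a type and less RNA per cell cannot be told apart.

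Marker sums of spleen cell types, those that carry these receptors and others, also differed between the groups. The 15 macrophage markers summed to 272 ± 12.1 CPM in BWF1 females (range 258 to 281), 679 ± 130 in males (529 to 754) and 408 ± 36.6 in BALB/c females (373 to 446). That is the order of the activating receptors, and the 3 ranges did not overlap. Of 12 macrophage markers tested, 6 were called lower in BWF1 females than in males and 7 higher in males than in BALB/c females by edgeR. None of the 15 was at 0 in a whole group, and up to 2 were at 0 in single BWF1 female libraries. Natural killer cell markers (8 genes) followed the same order, at 96.4 ± 9.03 CPM (90.4 to 107), 286 ± 9.33 (279 to 297) and 137 ± 20.2 (114 to 152), with 4 of 7 tested called lower in BWF1 females than in males. Monocyte markers (9 genes) summed to 239 ± 5.95, 420 ± 49.8 and 481 ± 35.4 CPM and neutrophil markers (10 genes) to 234 ± 127, 432 ± 208 and 334 ± 51.8 CPM. Between BWF1 females and males, 1 of 8 tested monocyte markers was called lower and 0 of 6 tested neutrophil markers were called. T cell markers (10 genes) summed to 446 ± 63.4, 768 ± 58.0 and 592 ± 93.4 CPM, and 7 of 10 were called lower in BWF1 females than in males by edgeR. Plasma cell markers (7 genes) summed to 731 ± 147, 1612 ± 420 and 764 ± 73.9 CPM, with 1 of 6 tested called lower in BWF1 females than in males. The B cell markers given above were highest in BALB/c females, as was the mean of Fcgr2b, and 4 of 10 were called lower in BWF1 than in BALB/c females. Dendritic cell markers (8 genes) were also highest in BALB/c females, at 170 ± 13.9, 206 ± 5.21 and 269 ± 12.6 CPM in the same order of groups. Of 6 tested, 3 had a negative log2 fold change between BWF1 and BALB/c females, and 1, Ccr7, was called lower. Ccr7 made up much of these sums, at 63.5, 93.7 and 144 CPM in the same order of groups. Flt3, Zbtb46 and Bst2 went the other way between the female groups (0.27, 0.05 and 0.52), without a call. Of all tested genes, 2.19% were called between BWF1 females and males, 3.82% between the female groups and 3.52% between males and BALB/c females. The groups did not overlap for 18.7%, 21.2% and 23.5% of them in the same comparisons.

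Relative to these markers the groups overlapped, but few counts stand behind the receptor values of BWF1 females. These libraries had 3, 3 and 2 activating receptor counts, of which 2, 1 and 1 were Fcgr3. Overlap on so few counts cannot decide whether a difference remains. Activating receptor counts per 1000 macrophage marker counts were 24.0, 18.8 and 14.6 in BWF1 females, 20.8, 25.2 and 31.7 in males and 24.2, 31.7 and 22.1 in BALB/c females. Fcgr3 alone gave 6.25 to 16.0, 15.5 to 20.8 and 12.3 to 24.7 in the same units. Per 1000 natural killer cell marker counts, Fcgr3 gave 48.8, 17.5 and 19.2 in BWF1 females, 56.3, 28.9 and 47.7 in males and 61.6, 80.9 and 34.2 in BALB/c females. Only BWF1 female 1, on 2 counts, overlapped the other groups there, and BWF1 females 2 and 3 lay below all their libraries. Fcgr2b per 1000 B cell marker counts was 9.78, 15.3 and 11.4 in BWF1 females, 16.5, 12.6 and 13.2 in males and 13.6, 15.01 and 9.99 in BALB/c females. Fcer1g per 1000 macrophage marker counts was 48.0, 93.8 and 51.1 in BWF1 females, 54.7, 29.1 and 38.9 in males and 29.03, 49.4 and 51.5 in BALB/c females. The part of cell composition in the receptor differences was not tested.

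**Figure D4:**
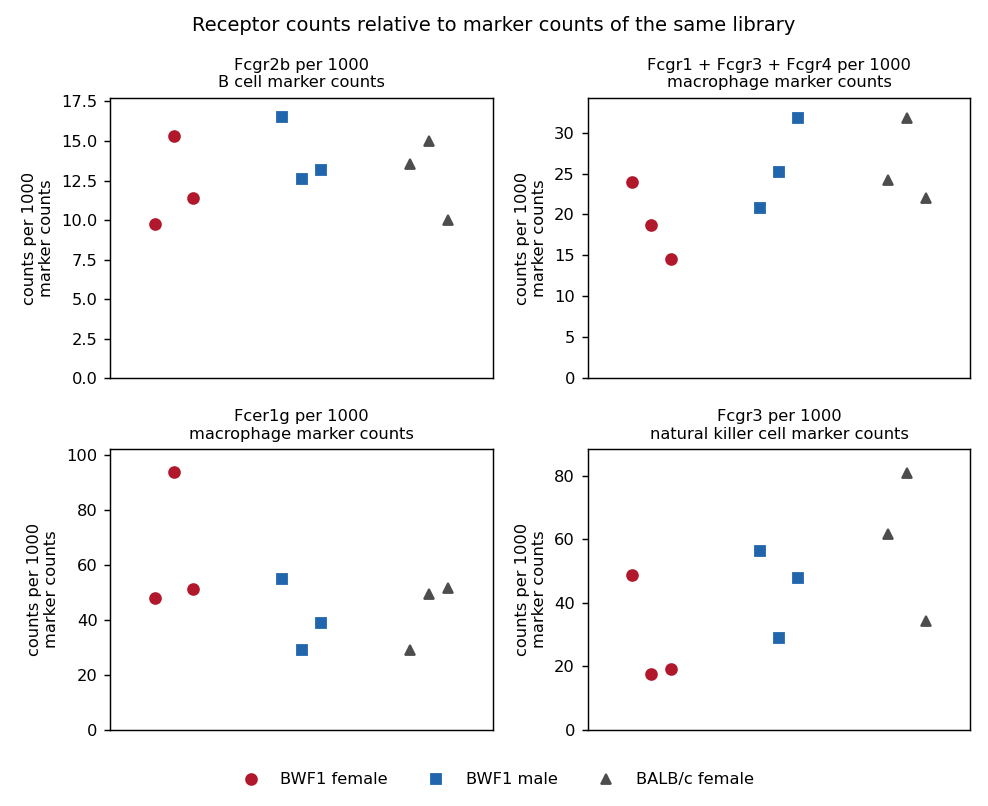
Receptor counts per 1000 counts of a marker list in the same library (vertical axes from 0), 1 point per library in replicate order. In each of the 4 panels the 3 groups overlap. BWF1 female 1, at 48.8 Fcgr3 counts per 1000 natural killer cell marker counts, lies among the males and rests on 2 Fcgr3 counts. BWF1 females 2 and 3 lie below all points of the other groups in that panel.

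The signalling genes downstream of the receptors mostly showed no call. In the list of 19 ITAM signalling genes, 17 were tested, and 1 was called lower in BWF1 females than in males, Rac2, a GTPase of blood cells (322 ± 44.5 against 471 ± 31.5 CPM; log2 fold change −0.55; edgeR adjusted p = 0.0414). The list's median log2 fold change was 0.15, 0.14 and 0.15 for BWF1 females against males, BWF1 against BALB/c females and males against BALB/c females, beside 0.00 over all genes tested in each; list medians below follow this order. Syk, the kinase that binds the phosphorylated ITAM, stood at 487 ± 63.3 CPM in BWF1 females, 435 ± 22.3 in males and 391 ± 35.1 in BALB/c females and was not called (edgeR adjusted p = 0.619 and 0.26 for BWF1 females against males and BALB/c females). In both comparisons with BALB/c females 0 of 17 were called by edgeR, with 6 and 5 at an unadjusted p under 0.05. The lowest p in the first was that of Malt1, a paracaspase of the CARD9 branch (BWF1 minus BALB/c females, log2 fold change 0.50; edgeR adjusted p = 0.068). In the second it was that of Btk, a tyrosine kinase of B and myeloid cells (49.3 ± 0.885 CPM in males against 68.6 ± 6.0; −0.48; edgeR adjusted p = 0.197). Rac2 lost its call without each of 6 libraries, among them BWF1 females 2 and 3 and BWF1 males 2 and 3, with library size alone (adjusted p 0.916, the largest), with the replicate block (0.0683) and with only the 2 groups compared (0.0609).

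On the inhibitory side, Inpp5d and Ptpn6, the phosphatases SHIP-1 and SHP-1, were not called. Inpp5d stood at 187 ± 29.3 CPM in BWF1 females, 204 ± 5.27 in males and 179 ± 20.02 in BALB/c females, and Ptpn6 at 311 ± 18.5, 351 ± 33.2 and 386 ± 30.9 CPM. Of 10 genes, all tested, 1 was called lower in BWF1 than in BALB/c females: Dok2, an adaptor that restrains immune receptor signals (14.5 ± 6.53 against 35.7 ± 4.35 CPM; log2 fold change −1.31; edgeR adjusted p = 0.0344). Dok2 lost the call without each of 5 libraries, BWF1 females 2 and 3 and each BALB/c library, and in 4 other settings (largest adjusted p 0.287). In the other comparisons 0 of 10 were called by edgeR, with 1 and 3 at an unadjusted p under 0.05, and the list medians were −0.14, 0.08 and −0.01. The lowest p belonged to the adaptor Dok3 between BWF1 females and males (85.5 ± 3.62 against 56.6 ± 19.1 CPM; log2 fold change 0.59; edgeR adjusted p = 0.151) and to Dok2 between males and BALB/c females (15.6 ± 9.38 CPM in males; −1.11; 0.0506).

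Of other receptors with inhibitory motifs, 9 of 11 were tested and 3 were called in at least 1 comparison, with list medians of −0.17, −0.20 and 0.08. Sirpa, the myeloid receptor for CD47, was lower in BWF1 females than in males (57.7 ± 10.9 against 95.7 ± 6.35 CPM; log2 fold change −0.73; edgeR adjusted p = 0.0364) and higher in males than in BALB/c females (55.3 ± 3.70 CPM; 0.80; 0.0103). Siglecg, an inhibitory lectin of B cells, was lower in BWF1 females (56.3 ± 5.86 CPM; log2 fold change −0.92; edgeR adjusted p = 0.00629) and in males (54.0 ± 12.03 CPM; −0.97; 0.00286) than in BALB/c females (106 ± 17.6 CPM). Cd22, another inhibitory lectin of B cells, was lower in BWF1 than in BALB/c females (300 ± 43.1 against 445 ± 22.9 CPM; −0.57; edgeR adjusted p = 0.0225). Siglecg kept both calls without each library in turn, with a largest edgeR adjusted p of 0.0498 and 0.0384, but not with the file-name tag as a term, nor, between the female groups, with library size alone (largest over all settings 0.11 and 0.052). Sirpa lost the call between the BWF1 groups without each of 5 libraries, BWF1 females 1 and 2, males 2 and 3 and BALB/c female 3, and the call between males and BALB/c females without BWF1 male 3 or BALB/c female 2 (largest adjusted p 0.177 and 0.0745 among these). With library size alone both Sirpa calls were lost (edgeR adjusted p = 0.875 and 0.567). The first was also lost with DESeq2 (adjusted p = 0.101) and with only the 2 groups compared (edgeR, 0.0592), and the second with the file-name tag (edgeR, 0.117). Cd22 lost its call without BWF1 females 1 or 2 or BALB/c females 2 or 3 (largest 0.14), with library size alone (0.241) and with the file-name tag (0.0976).

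Among partners and other users of ITAM adaptors, 3 of 12 genes were tested and 0 called by edgeR in any comparison (list medians −0.68, −0.46 and 0.36). Tyrobp, the DAP12 adaptor that serves other myeloid and natural killer receptors in the way Fcer1g serves Fc receptors, stood at 41.0 ± 3.67, 66.7 ± 18.7 and 41.1 ± 7.62 CPM in BWF1 females, males and BALB/c females. It had the lowest p of the list between males and BALB/c females (log2 fold change 0.68; edgeR adjusted p = 0.0845). Ncr1, a natural killer receptor that signals through Fcer1g, had the lowest p in both comparisons of BWF1 females, at 9.44 ± 1.63 CPM against 20.6 ± 7.66 in males and 16.8 ± 5.51 in BALB/c females (−1.17 and −0.81; edgeR adjusted p = 0.105 and 0.28). At an unadjusted p under 0.05 the counts were 2, 1 and 1. Oscar was at 0 in all libraries, and Trem2 at 0 in all BWF1 libraries.

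Of other Fc receptors, 6 of 12 were tested, and the IgE receptor Fcer2a (CD23) of follicular B cells was the only one called. It was lower in BWF1 females (77.1 ± 13.7 CPM; log2 fold change −1.95; edgeR adjusted p = 1.1e-07) and in males (88.1 ± 16.9 CPM; −1.74; 1.98e-07) than in BALB/c females (298 ± 29.1 CPM). Between the BWF1 groups it was not called (−0.21; edgeR adjusted p = 0.611), and both calls held in all 21 alternatives each. The list medians were −0.18, −0.20 and −0.14, and between the BWF1 groups 0 of 6 were called by edgeR, with 1 at an unadjusted p under 0.05. Fcmr, the IgM receptor, was that gene (250 ± 17.4 against 309 ± 17.8 CPM; −0.31; edgeR adjusted p = 0.279). Fcer1a, the IgE-binding chain that uses Fcer1g in mast cells and basophils, was at 0 in all BWF1 libraries.

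For the neonatal receptor, 5 of 8 partner and sorting genes were tested, with list medians of −0.13, 0.02 and 0.18. B2m, its obligate light chain and also that of MHC class I, was lower in BWF1 females than in males (499 ± 96.4 against 795 ± 103 CPM; log2 fold change −0.67; edgeR adjusted p = 0.0188), while Fcgrt gave −0.37 and no call. The B2m call was lost without BWF1 females 1 or 3 or males 2 or 3 (largest adjusted p 0.13) and with library size alone (0.827). Rab11fip1, an effector of the recycling compartment, had the lowest p in both comparisons with BALB/c females (36.4 ± 5.29 CPM in BWF1 females and 34.5 ± 5.6 in males against 19.9 ± 2.29; 0.86 and 0.79; edgeR adjusted p = 0.0539 and 0.0665) without passing. By edgeR, 0 of 5 were called in those comparisons, with 3 and 1 at an unadjusted p under 0.05. Over the 6 lists, 50 genes were tested, and 3, 4 and 3 were called in the comparisons of BWF1 females with males, BWF1 with BALB/c females and males with BALB/c females, beside 2.19%, 3.82% and 3.52% of all tested genes.

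Few genes near the chromosome 1 cluster were called, and whether the cluster moves as a block was not tested. Between BWF1 females and males its receptor genes all had negative log2 fold changes. These were −0.32 for Fcgr2b, −0.66 for Fcer1g, −2.26 for Fcgr3 (filter of 5 counts) and −0.92 for Fcgr4 (no count filter). Of all genes tested with the main filter, 49.9% had a negative value. The direction of Fcgr4 depended on BWF1 male 3, without which the pooled ratio of males to BWF1 females was 0.70. Within 200 kb on each side of it 26 other genes were counted and 12 tested, and 1 was called in 1 comparison: Ppox, an enzyme of haem synthesis, was higher in BWF1 females than in males (20.4 ± 10.9 against 6.12 ± 2.14 CPM; log2 fold change 1.65; edgeR adjusted p = 0.0352). Of all tested genes, 2.19% were called in that comparison. The Ppox call was lost without BWF1 female 3, male 2 or male 3 (largest adjusted p 0.24), with library size alone (0.0562) and with DESeq2 (0.0617). Erythroid markers stood at 1408 ± 801 CPM in BWF1 females, 562 ± 650 in males and 2213 ± 1382 in BALB/c females, and their part in the Ppox value was not tested. Fcrla, the Fc receptor-like gene of B cells next to Fcgr2b, had 92.4 ± 27.1, 103 ± 5.31 and 108 ± 8.30 CPM in the 3 groups, with no call.

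Across the 9 libraries, Fcer1g and Fcgrt followed each other most closely among the 3 tested members (Pearson r = 0.769 of log2 levels), and Fcgr2b followed neither (0.265 with Fcer1g and 0.148 with Fcgrt). Of 4741 named genes averaging at least 20 CPM, the patterns most like that of Fcgr2b were those of Gpbp1l1 (0.955), Crnkl1 (0.936) and Rnase6 (0.936). Closest to Fcer1g were Pcbp1 (0.903), Srpr (0.890) and Fbxl14 (0.874), and closest to Fcgrt were Eif3g (0.928), Eif1a (0.903) and Anxa2 (0.888). These coefficients are descriptions over 9 libraries that share depth and group, picked as the highest of many, and no test goes with them.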

How the data were processed

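The deposited values are raw counts per gene in 9 libraries, made by the authors with HTSeq as the summary lines in the files show, per the file headers; the submitters' processing notes list STAR 2.6, FastQC 0.10.1 and the mm10 build. The annotation and the use of strand are not given in the sources used here. rRNA was depleted with a NEBNext kit, per the labels' protocols. The reference strain behind mm10 is none of those sequenced, which can lower counts of divergent alleles and was not tested. Gene names came from GENCODE M21 (21939 of 21965 identifiers matched), and promoter sequences from RefSeq.

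Summary lines were left out of library sizes: reads in genes were 1.29% to 2.82% of the alignments counted. Genes reaching 10.3 CPM by edgeR's filter (minimum count 10) were tested over all 9 libraries with edgeR 4.0.16 (R 4.3.3; TMM scaling, quasi-likelihood test, prior degrees of freedom 19.4), with Benjamini-Hochberg adjustment over 7719 genes and a threshold of 0.05. The 95% intervals of fold changes use the t distribution with the residual and prior degrees of freedom. The test on Fcgr3 at a minimum count of 5 was one of the other settings listed at the outset, and the further settings tried on it were added after the data were seen. DESeq2 1.42.0 and limma-voom 3.58.1, other scalings, filters and designs, and leaving out each library were alternatives. Ratios of pooled counts have exact binomial intervals. Planned permutation tests of the inhibitory to activating ratio are not quoted, since the ratio is a score over chosen members.

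The members and gene lists were chosen with earlier results of these data known. The 6 members are named, and from each pathway list each called gene up to 4 per direction, otherwise the gene of lowest p; called genes within 200 kb of the cluster; and the 3 genes most like each tested member. A few others (Syk, Inpp5d, Ptpn6, Fcrla and genes at 0) were named for their role after their values were seen. Chi-square per degree of freedom between replicates was 1.41 to 19.5, so no libraries were merged for the tests. The ratios of pooled counts and the summed receptor counts do add the libraries of a group. The edgeR procedure was tested on data simulated for the genes that passed the main filter. Fcgr1, Fcgr3 and Fcgr4, which fell below that filter, were not covered.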

Additional observations from a re-analysis of the deposited data

How the results depend on the processing

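Of 540 fold changes and ratios recomputed under other settings, 470 kept direction and side of the threshold, and 115 of 146 counts of called genes stayed within 1.5 times their value; the cause of the changes below was not tested unless given. Between BWF1 females and males, and for any difference among the groups, 1 member (Fcgr3) was called in place of 0 with no count filter and with a minimum of 5, which test more genes, and 0 to 1 when each library was left out. Called pathway genes, 3 between BWF1 females and males, became 0 with library size only and 1 with only the 2 groups compared (0 to 4 without single libraries). The 4 between the female groups became 2 with library size only, 7 with no filter and 1 with the file-name tag as a term (2 to 6). The 3 between males and BALB/c females became 6 with no filter, 9 with limma-voom, 6 with Lars2 removed, 6 with a dispersion trend estimated first (added after seeing the data) and 1 with the tag (2 to 6). Fcgr3 between BWF1 females and males, at −2.26, lost its call with library size only (−2.12), limma-voom (−1.99) and 3 left-out libraries (−2.77 to −1.98 over the 9), and DESeq2 gave it no adjusted p there. Signs changed for Fcer1g between the female groups (−0.28 with library size only, −0.11 with the tag, −0.32 when BWF1 female 2 and −0.15 when BALB/c female 1 was left out, and −0.32 to 0.18 over the left-out libraries), for Fcgrt between them (−0.35 to 0.22 over the left-out libraries, with 0.22 when BWF1 female 3 and 0.15 when BALB/c female 3 was left out) and for Fcgrt between males and BALB/c females (−0.14 with library size only). Library size only moved the median gene by 0.16, −0.29 and −0.44 in the 3 comparisons, so its values are read against those shifts. The log2 ratio of BWF1 to BALB/c females turned to −0.52 against Fcer1g, −0.22 against the 4 genes together and −0.27 with mean log2 levels. With the same 3 denominators BALB/c females became the highest group, with spans between the highest and lowest group means of 0.80, 0.84 and 0.84 in place of 1.20. The span was 1.54 against Fcgr3 alone, and 0.95 to 1.5 without single libraries. Replicate numbers did not pair the samples (correlations −0.0912 to 0.0589 for the same number, 0 of 9 over 0.1, and 1 of 9 libraries closest to its own number). With the replicate block, calls over all genes between BWF1 females and males were 118 in place of 169, members called stayed at 0, and Fcgr3 gave −2.30 (edgeR adjusted p = 0.0491). Counts of 0 to 3 for Fcgr1, Fcgr3 and Fcgr4 in single libraries limit every statement on the activating receptors.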
